A study of Mus musculus with 30 samples.

Results

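Interferon-stimulated genes were followed in CD4 T cells sorted from mouse spleen. The set is a list of 53 symbols known to respond to interferon. It was given by name, but was chosen with earlier results of these data known. All 53 were found in the QuantSeq gene table, among 55573 gene identifiers, and all 53 in the RNA-seq table of named genes, among 34030. Every member passed the filter on low counts in both fits, which tested 14383 genes in QuantSeq and 17013 in RNA-seq.

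All mice were C57BL/6 and 8 weeks old. QuantSeq, a kit that reads the 3′ end of transcripts, gave 22 libraries. In the labels, TFH2 denotes CD4+CD45.2+ PD1+ cells that IL-4BacTg x OTII Tg mice gave through a CXCR5lo, CXCR5int or CXCR5hi gate (n = 2 each). TFH cells came from OTII Tg mice through the same gates (n = 3, 2 and 3 from CXCR5lo to CXCR5hi). Bcl6KO cells came from Bcl6f/fCd4cre x OTII Tg mice (n = 2), sorted as CD4+hCD2+. Il4-/- cells came from Il4-/- x OTII Tg mice (n = 2), sorted as CD4+ with no further gate. TH2 cells came from IL-4BacTg x OTII Tg mice (n = 4), sorted as CD4+hCD2+. The labels list no hCD2 reporter in the Bcl6KO genotype, so which cells that gate took there is not given. Every QuantSeq group carried the OTII T cell receptor transgene, and Cd4cre acts in all T cells of the Bcl6KO mice. RNA-seq of whole transcripts, made with the NEB Next Ultra kit, gave 8 libraries. OTII Tg mice gave TFH CXCR5hi cells (n = 2), IL-4BacTg mice gave TH2 cells (n = 2), and wild type mice gave naive CD4+CD62L+CD44-CD25- cells (n = 2). The last 2 libraries, both from IL-4BacTg x OTII Tg mice, are labelled TFH2 CXCR5hi and TH2. The labels name no animal, replicate number, batch, infection or immunisation, so every p-value reflects variation among libraries that could be technical. Libraries of different gates may come from the same mice, so each n counts libraries and not animals.

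Type I interferons bind the receptor made of Ifnar1 and Ifnar2 and, through the kinases Jak1 and Tyk2, activate a transcription factor complex that includes Stat2 and Irf9. That complex binds the interferon-stimulated response element (ISRE), a pair of GAAA repeats set close together. Interferon gamma acts through Ifngr1 and Ifngr2, and its signal reaches genes through the GAS element. The genes switched on include sensors of viral RNA and DNA, nucleases, GTPases that attack viruses and vacuoles, and the ubiquitin-like protein Isg15. In T cells the same genes are also held at a low tonic level by small amounts of interferon in healthy lymphoid tissue, and in T helper cells type I interferon is known as one of the signals that bear on the choice between TFH and other fates.

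The response element was present in many members' promoters, and 8 windows are shown because their genes carry the comparisons that follow. They were read from RefSeq promoters of GRCm38.p6, which cover 250 bases before to 50 bases after a gene's start, and are written 5′ to 3′ on the gene's own strand. Capitals mark matches to GAAANNGAAA, searched on both strands, so that a match on the opposite strand reads TTTCNNTTTC.
Isg15, chr4:156200860-156200909, minus strand: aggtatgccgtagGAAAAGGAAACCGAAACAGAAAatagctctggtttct
Ifit3, chr19:34583382-34583431, plus strand: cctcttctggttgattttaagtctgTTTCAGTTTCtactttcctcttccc
Ifit1, chr19:34640779-34640828, plus strand: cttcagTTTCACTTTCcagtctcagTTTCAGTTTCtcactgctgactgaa
Oas1g, chr5:120887614-120887650, minus strand: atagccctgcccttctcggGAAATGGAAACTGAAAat
Rsad2, chr12:26456548-26456597, minus strand: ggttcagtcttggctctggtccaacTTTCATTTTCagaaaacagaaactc
Phf11b, chr14:59341356-59341405, minus strand: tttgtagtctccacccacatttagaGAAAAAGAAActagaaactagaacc
Ifi203, chr1:173942503-173942552, minus strand: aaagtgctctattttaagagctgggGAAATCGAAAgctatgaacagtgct
Igtp, chr11:58199497-58199546, plus strand: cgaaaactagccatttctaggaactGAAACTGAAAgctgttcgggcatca

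Of 39 members with a promoter in the RefSeq table, 24 held GAAANNGAAA (61.5%), against 1079 of 27025 promoters of all genes (3.99%). Of the 38 matches in members, 28 lay within 150 bases before the start and 6 after it. The GAS letters TTCNNNGAA, which read the same on both strands, stood in 10 of the 39 (25.6%), against 9.55% of all promoters, and in 2 members the matches of both motifs overlapped. The windows of Ifit3 and its near copy Ifit3b are identical. Members also lie side by side: 32 of the 53 fall in 12 runs of neighbours within 1 Mb, among them 5 Ifit genes on chromosome 19 (34550694 to 34650009) and 4 Oas genes on chromosome 5 (120730333 to 120907521). Near copies share sequence, so counts can be split between them. Of all 50-base words of Oas1a, 57.6% occur in Oas1g, and the shares were 51.2% for Ifit3 in Ifit3b and 44.5% for Ifit3b in Ifit3.

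Library totals were 1.83 to 4.44 M counts in QuantSeq (M, 10 to the power 6; median 2.95) and 36.05 to 107.4 M in RNA-seq. Levels are given as counts per M counts (CPM). In QuantSeq 22 members had counts in every library, against 52 members in RNA-seq. All 8 T cell markers checked had counts in every group. Cxcr5, the receptor of the gate, was at 117.5 and 135.3 CPM in TFH2 CXCR5hi libraries and 0 in TH2, Bcl6KO and Il4-/- libraries. The RNA-seq library labelled TFH2 CXCR5hi held 1.089 CPM of Cxcr5 and 5.834 CPM of Pdcd1, while the RNA-seq library labelled TH2 of the same genotype held 127.9 and 131.3 CPM. Both go against their labels, so neither enters a comparison below. In the Bcl6KO libraries Bcl6 was at 6.773 and 25.55 CPM, and in the Il4-/- libraries Il4 was at 0 and 1.034 CPM. The QuantSeq TH2 libraries held 0.392, 13.29, 2.051 and 5.955 CPM of Bcl6 and 0, 0, 13.68 and 0 CPM of Il4. Neither gene thus sets its knockout apart from TH2 cells here. Reads from the 3′ end outside a deleted part check nothing.

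As a summary per library, log2(CPM + 1) was averaged over the 53 members. This score is a description with no test. TFH2 libraries lay at 4.124, 4.271 and 4.483 (lowest, median and highest of 6) and TFH libraries at 5.209, 5.605 and 5.906 (of 8). Bcl6KO libraries had 4.19 and 3.66, Il4-/- libraries 3.894 and 3.653, and TH2 libraries 3.691, 4.092, 3.462 and 3.359. All TFH libraries stood above all others of the kit, and all TFH2 libraries stood between TFH and TH2, with Bcl6KO replicate 1 inside the TFH2 range. By gate the mean score was 4.193 ± 0.098, 4.384 ± 0.14 and 4.262 ± 0.025 in TFH2 cells from CXCR5lo through CXCR5int to CXCR5hi (SD, n = 2 each). In TFH cells it was 5.667 ± 0.397, 5.628 ± 0.018 and 5.436 ± 0.19 (SD, n = 3, 2 and 3). In both cell types the gates differed by less than or about as much as the replicates did. In RNA-seq the score was 5.15 and 5.125 in TFH CXCR5hi libraries, 4.108 and 4.0 in TH2 libraries, and 4.873 and 4.86 in naive libraries. There the naive cells stood between TFH and TH2 cells.

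**Figure D1:**
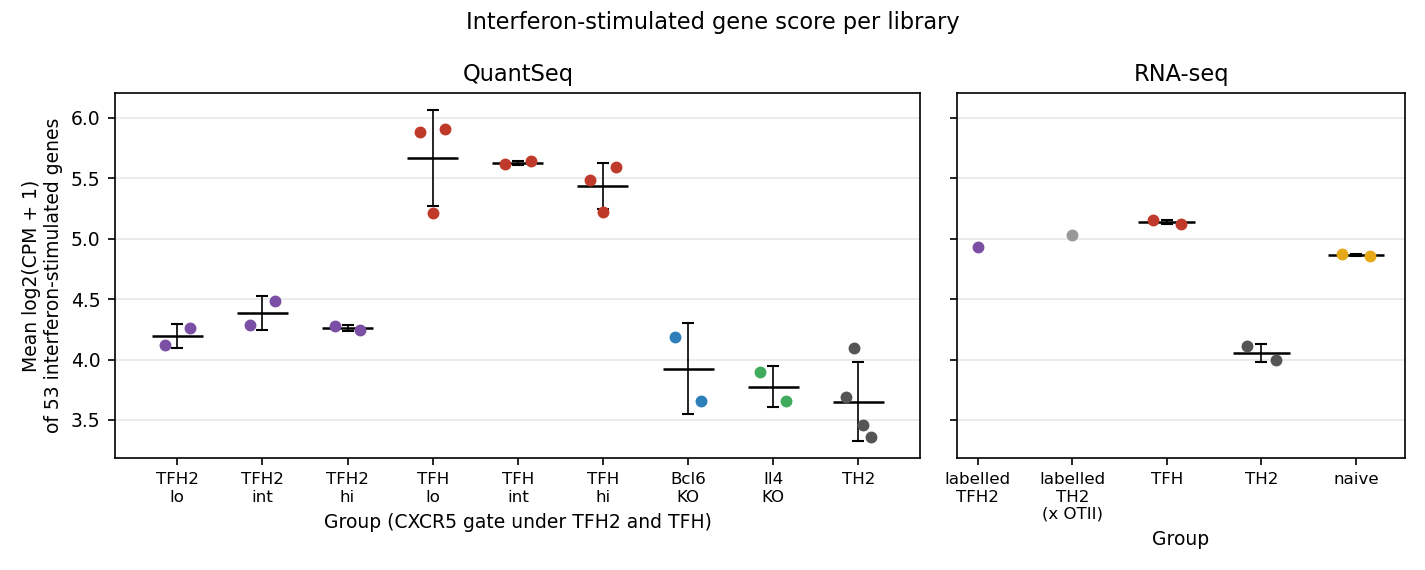
Score of the 53 interferon-stimulated genes, as the mean of log2(CPM + 1), in each library (points) with the group mean (lines) and 1 SD (error bars), QuantSeq and RNA-seq on separate panels. TFH libraries of every gate lie at 5.209 or above, TFH2 libraries between 4.124 and 4.483, and TH2 libraries between 3.359 and 4.092.

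TFH cells over the 3 gates (n = 8) held more of many antiviral transcripts than TH2 cells (n = 4), and less of 4 others. Each gene was tested with edgeR's quasi-likelihood test, with the gates weighted equally on the log2 scale and Benjamini-Hochberg adjustment over all genes tested, and an adjusted p under 0.05 is called a change. Of the 53 members 15 rose and 4 fell, or 35.8%, against 5.17% of all genes called (2.42% higher and 2.75% lower). The median log2 difference was 1.35 over the members, 1.30 with members absent from TH2 cells set at their bound, and -0.10 over all genes tested. In 19 members every TFH library lay above every TH2 library and in 2 every one lay below, against 2.45% of all genes with groups that do not overlap in the first direction and 2.06% in the second. In bulk samples, fewer cells of a type and less RNA per cell cannot be told apart. TFH and TH2 cells also differ in genotype and gate. The 8 T cell markers summed to 8616 to 11864 CPM in TFH libraries, 7862 to 11763 CPM in TFH2 libraries and 5398 to 7724 CPM in TH2 libraries. Of these markers 4 were called higher in TFH than in TH2 cells, 3 higher in TFH2 than in TH2 cells and none between TFH2 and TFH cells, and their part in the results was not tested.

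The IFIT family, whose products bind foreign RNA and block its translation, had 3 of 5 members higher. Ifit3 stood at 72.7, 133 and 193 CPM in TFH libraries (lowest, median and highest) and at 0.392, 4.43, 0 and 0 CPM in TH2 libraries. No TFH library came near any TH2 library, and the log2 difference was 6.70 ± 1.08 (SE, adjusted p = 7.3e-05, edgeR). Ifit1 averaged 66.1 ± 27.9 CPM in TFH and 4.47 ± 3.77 CPM in TH2 libraries (log2 3.89 ± 1.03, adjusted p = 0.00855, edgeR). Ifit3b averaged 54.9 ± 57.0 CPM in TFH libraries, with 1 count in all TH2 libraries together (adjusted p = 0.000237, edgeR). No member of the family fell, and Ifit2 and Ifit1bl1 did not pass.

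Of 6 members of the OAS family, some of whose products make the 2′-5′ oligoadenylates that activate RNase L, only Oas1g rose. Oas1g stood at 31.6, 85.7 and 153 CPM in TFH libraries and had no count in any TH2 library, at least 74.5-fold higher with 3 counts put in each empty library (adjusted p = 6.65e-08, edgeR). Oasl1 and Oas1a, also without a count in TH2 libraries, averaged 13.9 and 11.1 CPM in TFH libraries and did not pass (at least 11.5-fold and 9.13-fold higher, adjusted p = 0.101 and 0.117, edgeR). Oas1a, Oas1g, Mx1 and Mx2 had counts in every TFH library and in no TH2 library. Mx1 had counts in no other QuantSeq group, so it passed the filter on low counts through the TFH libraries alone. Its gap to TH2 libraries is thus only a description. Mx1 and Mx2 belong to a family of dynamin-like GTPases that block viral replication. C57BL/6 mice are known to carry a defective Mx1, and the gene annotation used here lists Mx2 as a polymorphic pseudogene. Mx2 averaged 21.5 ± 16.6 CPM in TFH libraries (at least 17.7-fold higher, adjusted p = 0.0398, edgeR), a call lost in 8 of the fits without 1 library (0.051 to 0.0948), and Mx1 averaged 13.5 ± 8.59 CPM (at least 11.1-fold higher, adjusted p = 0.105, edgeR).

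Among the other GTPases the direction turned. Igtp, which guards vacuoles holding parasites, stood at 8.70, 48.8 and 74.2 CPM in TFH libraries and at 105, 123, 163 and 87.2 CPM in TH2 libraries. All TFH libraries lay below all TH2 libraries, and the log2 difference was -1.45 ± 0.39 (adjusted p = 0.0101, edgeR). Ifi47, of the same family, stood at 81.6, 112 and 232 CPM in TFH libraries against 300, 217, 191 and 235 CPM in TH2 libraries, and fell by 0.97 ± 0.29 on the log2 scale (adjusted p = 0.0263, edgeR). Here the groups overlapped through 1 TFH CXCR5hi library at 232 CPM. The call was lost without any of TH2 replicate 1, TFH CXCR5int replicate 1 or TFH CXCR5hi replicate 3 (adjusted p = 0.123, 0.08 and 0.0562). That of Igtp was lost without TFH CXCR5int replicate 1 or TH2 replicate 3 (adjusted p = 0.063 and 0.0588).

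The sensors of foreign nucleic acid rose in 3 of 7 cases. Zbp1, a sensor of Z-form nucleic acid that triggers cell death, stood at 145, 222 and 296 CPM in TFH libraries and 83.5, 30.3, 47.9 and 96.9 CPM in TH2 libraries (log2 1.75 ± 0.36, adjusted p = 0.0003, edgeR). Ifi203, a member of the AIM2-like family, stood at 232, 306 and 696 CPM against 127, 105, 123 and 147 CPM (log2 1.49 ± 0.29, adjusted p = 8.31e-05, edgeR). For both genes the groups were fully apart. Ifih1, which encodes the RNA sensor MDA5, averaged 41.2 ± 23.6 CPM in TFH libraries with 1 count in TH2 libraries (adjusted p = 0.00149, edgeR).

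Isg15, the ubiquitin-like tag of antiviral proteins, stood at 118, 203 and 299 CPM in TFH libraries and 5.10, 5.11, 0.684 and 33.0 CPM in TH2 libraries. The groups did not overlap, and TH2 replicate 4 was the highest of its group. The log2 difference of 4.24 ± 1.08 passed narrowly (adjusted p = 0.0364, edgeR) and missed in 7 of the fits that left out a library (adjusted p = 0.0512 to 0.102). Parp14, which adds ADP-ribose to proteins and is also known to act with Stat6, averaged 167 ± 49.5 CPM in TFH and 51.3 ± 20.9 CPM in TH2 libraries (log2 1.67 ± 0.42, adjusted p = 0.00427, edgeR).

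Of the enzymes and membrane factors, Isg20 rose and Samhd1 fell. Isg20, an RNA exonuclease, stood at 189, 315 and 507 CPM in TFH libraries and 81.6, 74.3, 40.3 and 53.6 CPM in TH2 libraries (log2 2.38 ± 0.31, adjusted p = 1.87e-09, edgeR), the member with the smallest p here. Samhd1, a nucleotide hydrolase that starves viruses of deoxynucleotides, stood at 291, 356 and 392 CPM in TFH libraries and 579, 472, 845 and 690 CPM in TH2 libraries. All TFH libraries lay lower, by -0.91 ± 0.19 on the log2 scale (adjusted p = 0.000546, edgeR). Rsad2, or viperin, stood at 107, 168 and 278 CPM in TFH libraries against 19.2, 0, 1.71 and 0 CPM in TH2 libraries. Its groups were far apart, yet its log2 difference of 5.10 ± 1.42 missed the threshold (adjusted p = 0.0582, edgeR).

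In the remaining members 4 rose and 1 fell. Ifi27l2a, a small mitochondrial protein strongly induced by interferon, stood at 1140, 1888 and 2304 CPM in TFH libraries and 430, 446, 108 and 86.1 CPM in TH2 libraries (log2 2.77 ± 0.45, adjusted p = 0.0016, edgeR). Phf11b averaged 149 ± 34.3 CPM in TFH and 16.9 ± 16.1 CPM in TH2 libraries (log2 3.14 ± 0.60, adjusted p = 0.000467), and some of its reads cannot be told apart from those of its paralog Phf11a. Rtp4, a chaperone of receptor transport, averaged 88.2 ± 53.3 CPM against 4.98 ± 5.86 CPM (log2 4.06 ± 0.93, adjusted p = 0.00155). Slfn5, a Schlafen protein, averaged 231 ± 55.7 CPM against 38.3 ± 24.7 CPM (log2 2.61 ± 0.59, adjusted p = 0.00821), a call lost without TH2 replicate 4 (adjusted p = 0.0565). Ly6a, the surface protein Sca-1, fell by 0.70 ± 0.19 on the log2 scale (603 ± 162 CPM in TFH and 978 ± 259 CPM in TH2 libraries, adjusted p = 0.00966), a call lost without TH2 replicate 1 or 2 (0.0858 and 0.0861). The TH2 libraries themselves were not alike in this gene.

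Replicates 1 and 2 of the TH2 group held the female transcript Xist (338.8 and 383.3 CPM), and replicates 3 and 4 the Y-linked Ddx3y (100.5 and 28.7 CPM). The same pairs differed in several members. Ly6a was at 1204 and 1200 CPM in replicates 1 and 2 and at 776 and 734 CPM in replicates 3 and 4. Ifitm3, which blocks viral fusion, was at 84.3 and 101 CPM in replicates 1 and 2 and had no count in replicates 3 and 4. Bcl6KO libraries, which held Xist (219 and 221 CPM), had 1049 and 1033 CPM of Ly6a and 4.84 and 2.84 CPM of Ifitm3. Il4-/- libraries, which held Ddx3y (82.8 and 72.4 CPM), had 1277 and 1026 CPM of Ly6a and no count of Ifitm3. In sample order TH2 replicates 1 and 2 stand beside the TFH2 libraries, and replicates 3 and 4 among the knockout libraries. Sex and sample order thus run together in the TH2 group, and the cause of the split was not tested. With replicates 1 and 2 alone as TH2 cells 13 members rose and 2 fell, among 541 genes called (265 higher and 276 lower), and with replicates 3 and 4 alone 15 rose and 2 fell, among 599 genes called (351 higher and 248 lower). Against replicates 3 and 4 Ly6a did not pass (adjusted p = 0.637), nor did Ifi47, Ifit1, Rtp4 or Mx2 (0.279, 0.13, 0.0811 and 0.205). Against replicates 1 and 2 it was Samhd1, Igtp, Parp14 and Mx2 that did not pass (0.182, 0.068, 0.0915 and 0.196).

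**Figure D2:**
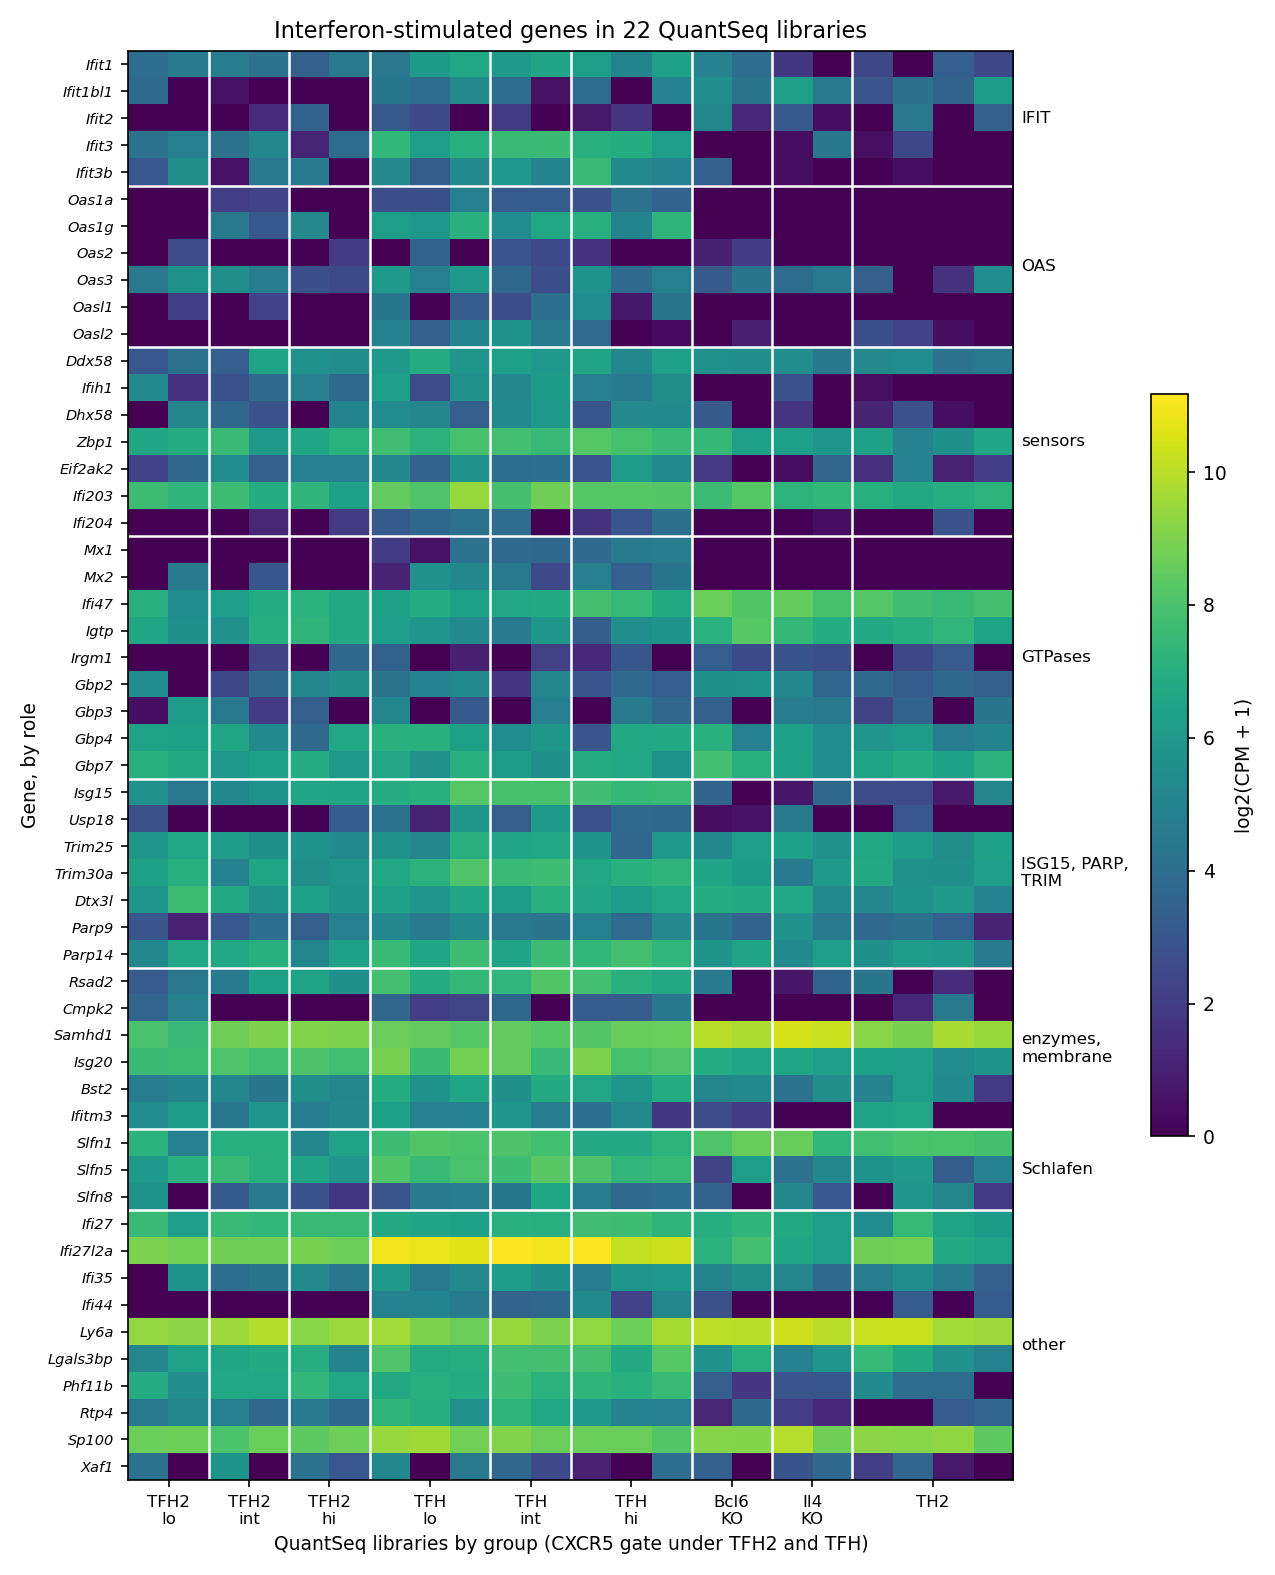
Level of each of the 53 members in every QuantSeq library, as log2(CPM + 1), with members ordered by role and libraries by group. Ifit3, Oas1g, Isg15, Rsad2 and Ifi27l2a are higher in all TFH columns than in all TH2 columns, while Samhd1 and Igtp are lower there than in TH2 columns.

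Between TFH2 cells (n = 6) and TH2 cells (n = 4) fewer members changed. Of the 53 members 5 rose and 5 fell (18.9%), against 4.35% of all genes called (2.03% higher and 2.32% lower). The median log2 difference was 0.46 over the members (0.26 with bounds) and -0.14 over all genes. The split between higher and lower depended on the TH2 libraries: with TH2 replicates 3 and 4 alone 9 rose and 3 fell, among 597 genes called, and with replicates 1 and 2 alone 4 rose and 3 fell, among 465. Fitted on only these groups, 1 rose and 3 fell, among 639 genes, and Ifit3, Ifit3b, Ifih1, Phf11b, Ifit1bl1 and Ifi44 did not pass (adjusted p = 0.323, 0.128, 0.0983, 0.0657, 0.0558 and 0.145). TFH2 and TH2 cells had the same listed genotype and differ by gate, but all TFH2 libraries held Ddx3y with Xist at 20.9 CPM or less, unlike TH2 replicates 1 and 2. Gate and sex can thus be told apart only against TH2 replicates 3 and 4.

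Isg20 stood at 194, 221 and 276 CPM in TFH2 libraries (lowest, median and highest of 6), against 81.6, 74.3, 40.3 and 53.6 CPM in TH2 libraries (log2 1.88 ± 0.31, adjusted p = 3.09e-06, edgeR). Phf11b stood at 43.8, 103 and 168 CPM in TFH2 libraries, against 38.8, 14.3, 14.4 and 0 CPM in TH2 libraries (log2 2.60 ± 0.60, adjusted p = 0.00408, edgeR). Every TFH2 library was above every TH2 library in both genes. Ifit3 stood at 1.22, 17.0 and 36.0 CPM in TFH2 libraries (log2 3.67 ± 0.96, adjusted p = 0.0191, edgeR), with the lowest of them below TH2 replicate 2 at 4.43 CPM. Ifit3b averaged 15.9 ± 16.9 CPM and Ifih1 17.1 ± 14.3 CPM in TFH2 libraries, each with 1 count in TH2 libraries (adjusted p = 0.00353 and 0.00879, edgeR). Without TFH2 CXCR5hi replicate 1 or TFH2 CXCR5int replicate 2 the call of Ifit3b was lost (adjusted p = 1.0 and 0.0546), and without TH2 replicate 1 that of Ifit3 (adjusted p = 0.0619).

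The 5 members that fell belong to several families. Slfn1, a Schlafen protein known to restrain T cell growth, stood at 27.0, 108 and 137 CPM in TFH2 libraries and 223, 252, 258 and 232 CPM in TH2 libraries, fully apart (log2 -1.48 ± 0.30, adjusted p = 0.000267, edgeR). Ifi47 stood at 41.7, 112 and 139 CPM in TFH2 libraries against 300, 217, 191 and 235 CPM, also fully apart (log2 -1.24 ± 0.31, adjusted p = 0.00399, edgeR). Samhd1 stood at 191, 469 and 533 CPM against 579, 472, 845 and 690 CPM and overlapped (log2 -0.77 ± 0.21, adjusted p = 0.00983, edgeR), a call lost without TH2 replicate 3 (adjusted p = 0.123). Ifit1bl1 averaged 2.30 ± 5.44 CPM in TFH2 and 26.1 ± 30.1 CPM in TH2 libraries (adjusted p = 0.00719), a call lost without TH2 replicate 4 (0.077). Ifi44 had no count in TFH2 libraries and 4.29 ± 4.96 CPM in TH2 libraries, at least 3.85-fold lower (adjusted p = 0.0461), a call lost in 8 of the fits without 1 library (0.0862 to 0.18). Among members that did not pass, Isg15 averaged 57.6 ± 30.6 CPM in TFH2 and 11.0 ± 14.8 CPM in TH2 libraries (adjusted p = 0.238) and Rsad2 44.6 ± 32.8 and 5.23 ± 9.36 CPM (0.266). Oasl2 had no count in any TFH2 library and was not called (adjusted p = 0.105). Oas1g had no count in TFH2 CXCR5lo and TH2 libraries, and Mx2 none in TFH2 CXCR5hi and TH2 libraries, which leaves the equal weighting of gates little to test (adjusted p = 1.0 for both). With the gates pooled, an alternative chosen after seeing the data, Oas1g passed (11.0 ± 15.3 CPM in TFH2 libraries, adjusted p = 0.0186, edgeR).

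Set directly against TFH cells (n = 8), TFH2 cells (n = 6) had lower levels of 6 members and higher levels of none. That is 11.3% of the members, against 0.647% of all genes called (0.327% higher and 0.32% lower). The median log2 difference was -1.26 over the members and -0.05 over all genes, and 8 of 53 members had a difference above 0. In 9 members every TFH2 library lay below every TFH library and in none above, against 0.202% of all genes lower and 0.292% higher. Both comparisons above share the TH2 libraries, so the values here come from the contrast of TFH2 with TFH itself.

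Ifi27l2a stood at 416, 435 and 496 CPM in TFH2 libraries and 1140, 1888 and 2304 CPM in TFH libraries, a tight low group and a high group with a gap between them (log2 -2.03 ± 0.36, adjusted p = 0.0187, edgeR). Oas1g stood at 0, 3.71 and 37.0 CPM in TFH2 and 31.6, 85.7 and 153 CPM in TFH libraries (log2 -5.28 ± 0.98, adjusted p = 0.000418, edgeR). By gate its TFH2 libraries were at 0 and 0 CPM in CXCR5lo, 21.6 and 7.42 CPM in CXCR5int, and 37.0 and 0 CPM in CXCR5hi. Its groups overlapped only through the 1 TFH2 CXCR5hi library at 37.0 CPM. Ifit3 stood at 1.22, 17.0 and 36.0 CPM in TFH2 and 72.7, 133 and 193 CPM in TFH libraries, fully apart (log2 -3.03 ± 0.72, adjusted p = 0.04, edgeR). Ifi203 stood at 79.4, 155 and 204 CPM against 232, 306 and 696 CPM, also fully apart (log2 -1.23 ± 0.24, adjusted p = 0.00101, edgeR).

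Slfn1 stood at 27.0, 108 and 137 CPM in TFH2 and 105, 210 and 279 CPM in TFH libraries and overlapped (log2 -1.15 ± 0.27, adjusted p = 0.00999, edgeR). Ifi44 had no count in TFH2 libraries and 3.69, 26.5 and 37.9 CPM in TFH libraries (at least 20.5-fold lower, adjusted p = 0.0268, edgeR). Its call rested on fits with all TFH2 libraries: without any 1 of the 6 the adjusted p was 0.106 to 0.172. The call of Ifi27l2a was lost in 5 fits without 1 library (0.055 to 0.0857), that of Ifit3 without TFH CXCR5hi replicate 2 or TFH CXCR5lo replicate 3 (0.0565 and 0.0618), and that of Slfn1 without TFH2 CXCR5hi replicate 1 or TFH2 CXCR5lo replicate 2 (0.094 and 0.141). Those of Oas1g and Ifi203 held with each library left out.

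Further members had groups that did not overlap but missed the threshold. Isg15 stood at 20.9, 49.9 and 96.8 CPM in TFH2 and 118, 203 and 299 CPM in TFH libraries (log2 -1.95 ± 0.79, adjusted p = 0.453, edgeR). Rsad2 stood at 8.24, 35.8 and 86.6 CPM in TFH2 and 107, 168 and 278 CPM in TFH libraries (log2 -2.29 ± 1.01, adjusted p = 0.493, edgeR). Bst2, or tetherin, stood at 19.4, 32.0 and 44.3 CPM against 48.0, 97.9 and 120.0 CPM (adjusted p = 0.258, edgeR). Mx1 had no count in TFH2 libraries (at least 12.1-fold lower, adjusted p = 0.114, edgeR), nor did Oasl2 (at least 17.8-fold lower, adjusted p = 0.0501, edgeR), though 1 TFH library was also without Oasl2. Oas1a averaged 1.15 CPM in TFH2 and 11.1 CPM in TFH libraries (adjusted p = 0.335, edgeR). The GTPases had a median difference of -0.15 with none of 9 called, and Igtp had a difference of 1.08 ± 0.35 (96.0 ± 42.9 CPM in TFH2 and 45.0 ± 21.0 CPM in TFH libraries, adjusted p = 0.171).

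**Figure D3:**
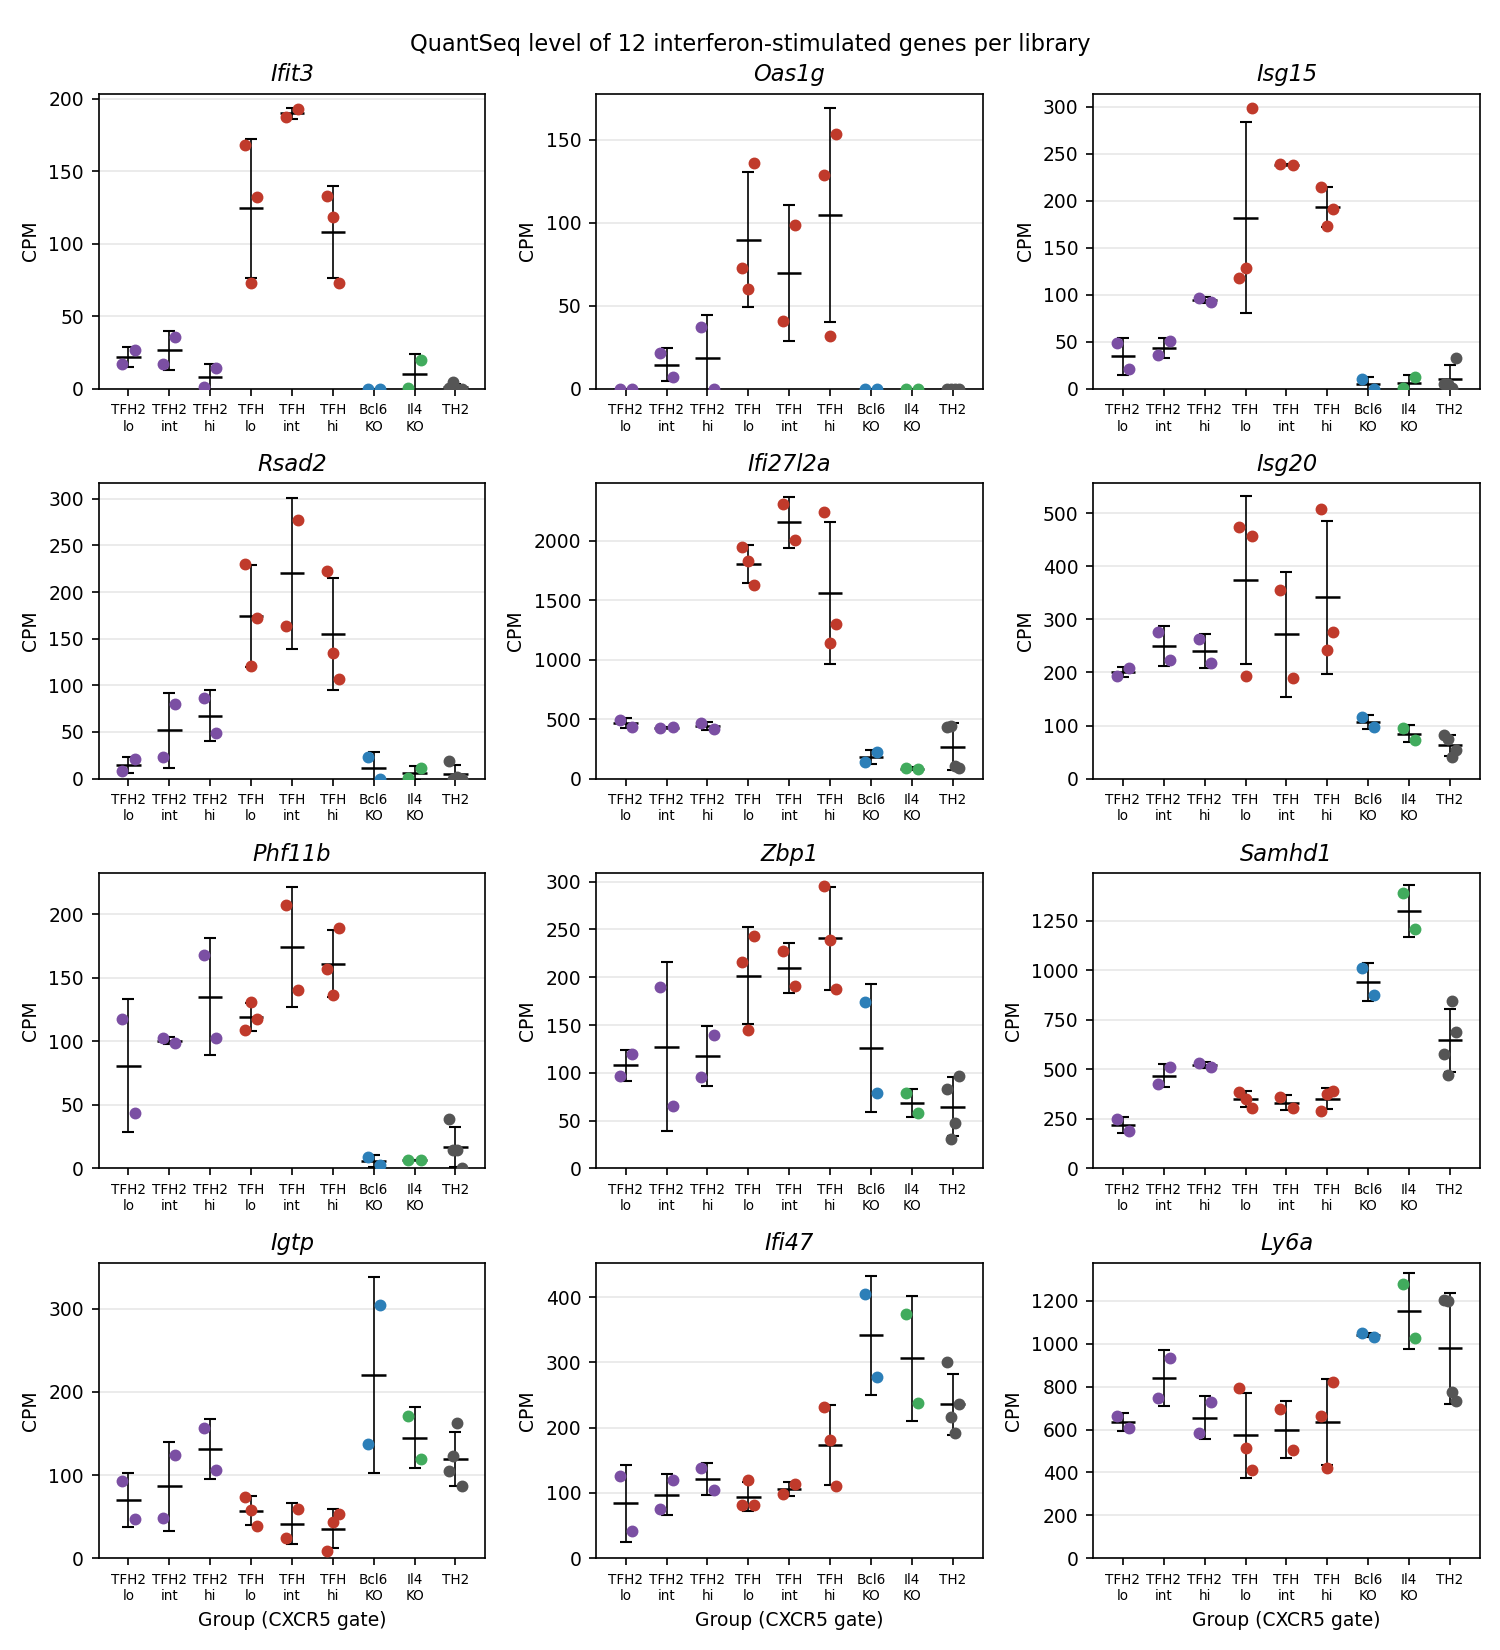
CPM of 12 members in each QuantSeq library by group, on linear axes from 0, with points for libraries, lines for group means and error bars of 1 SD. Ifit3, Oas1g, Isg15, Rsad2 and Ifi27l2a are highest in TFH groups, Isg20 is high in both TFH2 and TFH groups, and Samhd1, Igtp, Ifi47 and Ly6a are lower in TFH than in TH2 groups.

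Other differences ran along with the contrast of TFH2 and TFH cells. All 6 TFH2 libraries held Ddx3y and all 8 TFH libraries held Xist without Ddx3y, so genotype and the sex of the mice cannot be told apart here. Markers of macrophages and monocytes summed to 349 to 1791 CPM in TFH2 libraries, 118 to 292 CPM in TFH libraries and 40.6 to 94.7 CPM in TH2 libraries, with counts for 14, 11 and 7 of 14 markers. B cell markers summed to 356 to 1154, 186 to 298 and 60.6 to 169 CPM, with Ms4a1 at 0 in TFH2 libraries. Erythroid markers summed to 413 to 1590, 39.5 to 340 and 0 to 39.6 CPM. Markers of plasmacytoid dendritic cells, which make type I interferon, summed to 43.3 to 199, 32.8 to 104 and 7.52 to 23.3 CPM, with Siglech and Cox6a2 at 0 in each and Klk1 at 0 in TFH2 and TFH libraries. That sum includes Irf8, which is also among the upstream genes below, at 29.2 to 111, 8.36 to 73.2 and 0 to 13.3 CPM in the same order. All 4 sums were higher in TFH2 than in TH2 libraries, and their part in the results was not tested. Without the TFH2 CXCR5hi libraries, which held higher erythroid sums than every other library, 1 member was called between TFH2 and TFH cells, Oas1g, and the genes called fell to 55, against 93 with all libraries. That alternative was chosen after seeing the data.

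**Figure D4:**
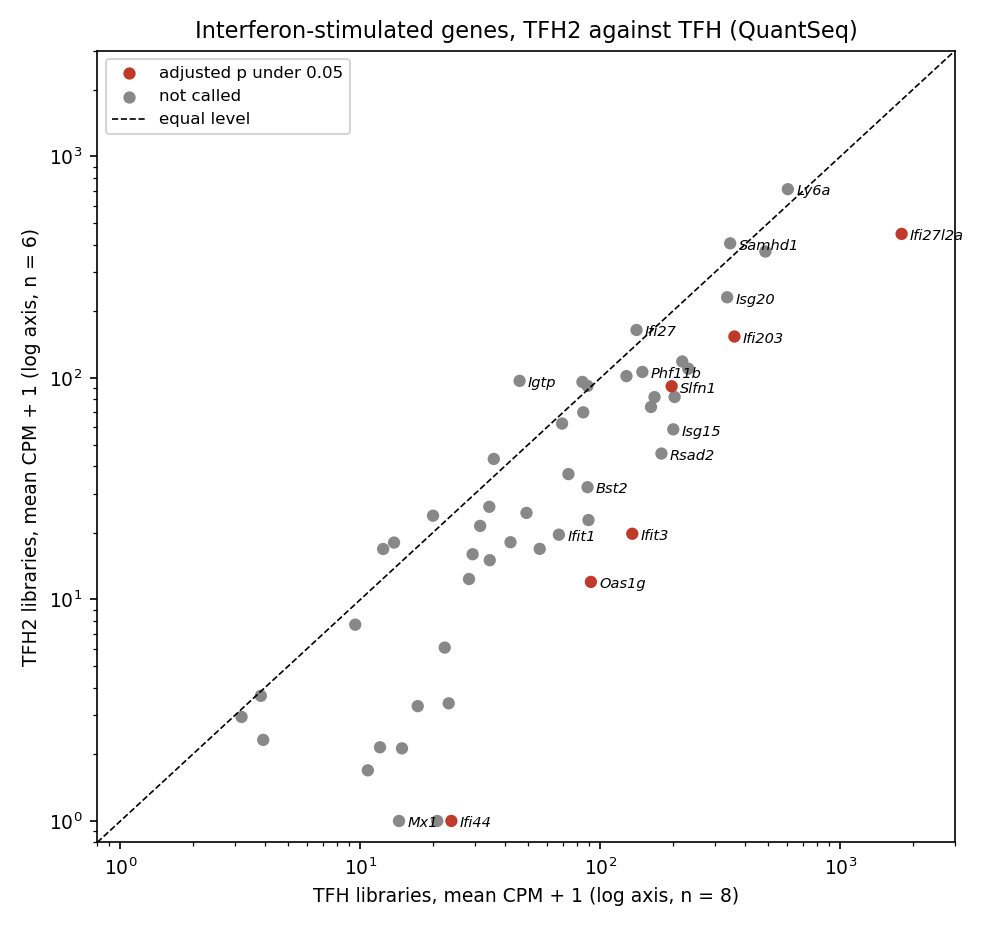
Mean CPM + 1 of each member in TFH2 libraries (n = 6, vertical log axis) against TFH libraries (n = 8, horizontal log axis), with the line of equal levels and the 6 called members in red. Most members lie below the line, and those called are Oas1g, Ifi203, Slfn1, Ifi27l2a, Ifi44 and Ifit3.

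Within single gates few members passed. In the CXCR5hi gate none of 53 passed between TFH2 (n = 2) and TFH (n = 3) cells, against 0.0695% of all genes called. The smallest p was that of Ifi203, at 155 and 79.4 CPM in TFH2 and 304, 308 and 288 CPM in TFH libraries (adjusted p = 0.423, edgeR), and Igtp and Ifit1bl1 followed (0.462 and 0.852). Unadjusted, 14 members and 675 of 14383 genes had a p under 0.05, and DESeq2 called 0 members. In the CXCR5int gate (n = 2 each) none passed, against 0 of all genes called, with 9 members and 475 genes under 0.05 unadjusted and 0 members and 27 genes by DESeq2. There Ifi27l2a was at 425 and 433 CPM in TFH2 and 2304 and 2002 CPM in TFH libraries (adjusted p = 0.905, edgeR), followed by Trim30a and Usp18 at the same adjusted p. In the CXCR5lo gate 1 member fell, against 0.132% of all genes called (0.0556% higher and 0.0765% lower). That was Oas1g, with no count in TFH2 libraries (n = 2) and 72.9, 60.3 and 136 CPM in TFH libraries (n = 3), at least 70.2-fold lower (adjusted p = 0.00662, edgeR), a call lost without TFH2 CXCR5lo replicate 2 (0.067). Slfn1 and Ifi203 came next (adjusted p = 0.275 and 0.459). The median differences were -1.27, -1.03 and -1.04 from CXCR5lo through CXCR5int to CXCR5hi. A test of whether the difference between TFH2 and TFH cells changed with the gate called none of the 53 members (smallest adjusted p = 0.908, edgeR) and 2 of 14383 genes.

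From the CXCR5hi to the CXCR5lo gate no member passed in either cell type. In TFH cells 0.139% of all genes were called and the members' median difference, CXCR5hi over CXCR5lo, was -0.19. Sp100, a nuclear body protein, was at 390, 389 and 289 CPM in CXCR5hi and 689, 756 and 445 CPM in CXCR5lo libraries and had the smallest p (log2 -0.82 ± 0.29, adjusted p = 0.641, edgeR). Slfn1 and Ifi27 followed at the same adjusted p. Unadjusted, 4 of 53 members and 872 of 14383 genes were under 0.05, and DESeq2 called 0 members. In TFH2 cells 0.153% of all genes were called and the median difference was 0. Samhd1 was at 533 and 513 CPM in CXCR5hi and 250 and 191 CPM in CXCR5lo libraries (log2 1.25 ± 0.33, adjusted p = 0.0948, edgeR). Oas1g had no count in CXCR5lo and 37.0 and 0 CPM in CXCR5hi libraries (adjusted p = 0.0742, edgeR, and 0.00548 without TFH2 CXCR5hi replicate 2). In all 5 members and 628 of 14383 genes were under 0.05 unadjusted, Ifit1bl1 among these members, and DESeq2 called 1 member.

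Neither knockout group showed a member past the threshold against TH2 cells (n = 4). For Bcl6KO (n = 2) none was called, against 0.0209% of all genes, and the median difference was 0.19. Unadjusted, 9 of 53 members and 837 of 14383 genes were under 0.05, and DESeq2 called 0 members. Ifi203 was at 203 and 302 CPM in Bcl6KO and 127, 105, 123 and 147 CPM in TH2 libraries, above all of them (log2 1.01 ± 0.37, adjusted p = 0.777, edgeR). Dtx3l, the partner of Parp9 in DNA repair and antiviral signalling, was at 121 and 111 CPM against 34.9, 51.1, 64.6 and 30.3 CPM (adjusted p = 0.847, edgeR), and Ifit3b had an adjusted p of 0.663. For Il4-/- (n = 2) none was called, against 0.0695% of all genes, and the median difference was 0. Unadjusted, 5 of 53 members and 768 of 14383 genes were under 0.05, and DESeq2 called 2 members. Ifitm3 had no count in Il4-/- libraries and 84.3, 101, 0 and 0 CPM in TH2 libraries (adjusted p = 0.148, edgeR, and 0.00432 and 0.00252 without TH2 replicate 3 or 4), and Ifit3 had an adjusted p of 0.921. Samhd1 was at 1391 and 1208 CPM in Il4-/- and 579, 472, 845 and 690 CPM in TH2 libraries, above all of them (log2 1.01 ± 0.27, adjusted p = 0.174, edgeR). Oas1g, Oas1a, Oasl1, Mx1 and Mx2 had no count in either knockout group or in TH2 cells. Il4-/- cells were sorted through a wider gate than TH2 cells. Bcl6KO libraries held Xist (219 and 221 CPM) without Ddx3y and Il4-/- libraries held Ddx3y (82.8 and 72.4 CPM), against TH2 libraries of both kinds. Neither knockout genotype lists the IL-4BacTg of the TH2 mice. The part of these differences in the knockout contrasts was not tested.

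The largest fitted differences among members that did not pass came mostly from members without a count in a group. In TFH2 CXCR5hi libraries Ifi44, Oasl1 and Mx1 had no count, at least 21.8-fold, 18.1-fold and 17.9-fold lower than in the same gate of TFH cells (adjusted p = 0.865 each, edgeR). In CXCR5int the same held for Oasl2, Usp18 and Mx1 (at least 40.0-fold, 39.8-fold and 14.1-fold lower, adjusted p = 0.905 each), and in CXCR5lo for Ifi44, Oasl2 and Oas1a (at least 22.2-fold, 18.5-fold and 9.9-fold lower, adjusted p = 0.756 each). Mx1, Oasl2 and Ifi44 were thus without a count in every TFH2 gate. Between CXCR5hi and CXCR5lo libraries of TFH2 cells, Cmpk2 and Mx2 had no count in CXCR5hi and averaged 20.1 and 11.7 CPM in CXCR5lo (adjusted p = 0.842 each), and in TFH cells Oasl2 averaged 4.72 and 23.6 CPM, Oas2 0.696 and 3.36 CPM and Ifit2 1.02 and 3.92 CPM. Cmpk2, a mitochondrial nucleotide kinase, and Ifi204 had no count in Bcl6KO libraries and averaged 5.73 and 1.54 CPM in TH2 libraries, while Oas2 averaged 1.90 CPM in Bcl6KO libraries with no count in TH2 libraries (adjusted p = 0.861 each). Cmpk2 and Ifi44 had no count in Il4-/- libraries either, against 5.73 and 4.29 CPM in TH2 libraries (adjusted p = 0.924 and 0.921).

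In the CXCR5hi gate alone, 12 members rose and 2 fell in TFH cells (n = 3) against TH2 cells (n = 4), or 26.4%, against 3.51% of all genes (2.05% higher and 1.46% lower). Those that rose were Isg20, Oas1g, Ifit3, Ifit3b, Ifit1, Zbp1, Phf11b, Ifih1, Ifi27l2a, Parp14, Ifi203 and Slfn5, and those that fell were Samhd1 (log2 -0.87 ± 0.25, adjusted p = 0.0259, edgeR) and Igtp (log2 -1.75 ± 0.53, adjusted p = 0.0356, edgeR). With 1 library left out the adjusted p reached 0.182 for Samhd1, 0.308 for Igtp, 0.107 for Ifit1, 0.161 for Slfn5 and 0.0694 for Parp14, and the other 9 calls held. Oasl1, Mx1 and Mx2 had no count in TH2 libraries and were at least 17.1-fold, 16.9-fold and 15.9-fold higher without passing (adjusted p = 0.123, 0.126 and 0.0645, edgeR). This is the QuantSeq contrast that RNA-seq repeats in other samples, with TH2 cells of IL-4BacTg mice that lack the OTII transgene.

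RNA-seq of TFH CXCR5hi cells (n = 2) and TH2 cells (n = 2) gave 39 members that rose and 5 that fell, 83.0%, against 61.8% of all genes called (30.8% higher and 31% lower). The biological coefficient of variation was 0.0879 here and 1.26 in QuantSeq, and the libraries were deeper. The members' median log2 difference was 1.26, against -0.01 over all genes. Isg15 was at 75.6 and 71.4 CPM in TFH and 2.79 and 2.71 CPM in TH2 libraries (log2 4.74 ± 0.10, adjusted p = 1.88e-11, edgeR). Ifit3 was at 13.6 and 12.9 CPM in TFH and 0.186 and 0.243 CPM in TH2 libraries (log2 5.90 ± 0.23, adjusted p = 1.26e-09, edgeR). Rsad2 was at 12.7 and 12.1 CPM in TFH and 1.58 and 1.29 CPM in TH2 libraries (log2 3.11 ± 0.18, adjusted p = 5.23e-08, edgeR). In these 3 genes the replicates of each group nearly coincide.

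By family, RNA-seq showed 5 of 6 OAS members higher in TFH cells, with Oasl2 at 7.44 ± 0.0438 CPM in TFH and 0.0901 ± 0.0702 CPM in TH2 libraries (log2 6.34 ± 0.33, adjusted p = 2e-08, edgeR), and Oas3 not called. Oas3, Slfn8 and Ddx58 differed by -0.16, -0.16 and 0.08 without passing (adjusted p = 0.162, 0.143 and 0.365). The IFIT family had 3 members higher and Ifit1bl1 lower (log2 -2.58). All 7 of the ISG15, ADP-ribosylation and TRIM group rose, as did 6 of 7 sensors and 7 of 9 GTPases, Igtp and Irgm1 among them. Ifi44 rose by 4.52 on the log2 scale, with both groups under 1 CPM. The lower members included Ifitm3, at 0.516 and 0.36 CPM in TFH and 119 and 107 CPM in TH2 libraries (log2 -7.95 ± 0.15, adjusted p = 1.02e-11, edgeR), and Ly6a, at 60.8 and 59.3 CPM against 542 and 425 CPM (log2 -3.01 ± 0.12, adjusted p = 1.37e-09, edgeR). Slfn1 and Bst2 also fell, by 0.67 and 0.36 on the log2 scale.

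Set against naive cells (n = 2), the TFH and TH2 cells of the RNA-seq set moved different ways. TFH cells had 29 members higher and 14 lower, with a median difference of 0.52, against 57.2% of all genes called (29.6% higher and 27.6% lower). TH2 cells had 8 higher and 38 lower, with a median of -1.02, against 65.8% of all genes called (33.9% higher and 31.9% lower). These contrasts share the naive libraries, so their values are given side by side. Isg15 was at 75.6 and 71.4 CPM in TFH cells, 2.79 and 2.71 CPM in TH2 cells, and 12.1 and 11.7 CPM in naive cells, so that naive cells lay between (log2 2.63 ± 0.08 and -2.11 ± 0.11, adjusted p = 4.35e-10 and 1.83e-08, edgeR). Ifit3 was at 13.6 and 12.9, 0.186 and 0.243, and 6.72 and 7.73 CPM in the same order (log2 0.87 ± 0.14 and -5.03 ± 0.23). Naive cells were here much nearer to TFH cells than to TH2 cells.

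Several members did not follow that order. Oas2, an oligoadenylate synthetase, was at 3.54 and 3.76 CPM in TFH cells, 1.30 and 1.21 CPM in TH2 cells, and 51.5 and 47.6 CPM in naive cells, lower in both (log2 -3.77 ± 0.12 and -5.30 ± 0.14, adjusted p = 4.2e-10 and 5.77e-11, edgeR). Ifit2 was likewise at 13.0 and 13.4, 13.2 and 12.9, and 56.8 and 56.6 CPM, lower in both (log2 -2.11 and -2.12). Isg20 was at 42.5 and 46.7, 47.2 and 44.0, and 9.55 and 10.2 CPM, higher in both (log2 2.17 ± 0.09 and 2.21 ± 0.09). Mx1 was higher in both (log2 3.45 ± 0.19 and 2.55 ± 0.20), and Rsad2 was higher by 3.68 ± 0.19 in TFH and 0.57 ± 0.21 in TH2 cells. In TH2 cells Ifitm3 was higher by 8.76 ± 0.15 and Ly6a by 3.98 ± 0.12, while in TFH cells Ifitm3, Ifi44 and Oasl2 were not called (log2 0.80, 0.27 and 0.23, adjusted p = 0.125, 0.69 and 0.317). In TH2 cells Parp9, Bst2 and Gbp4 were not called (0.16, -0.15 and 0.13, adjusted p = 0.132, 0.113 and 0.216). TFH libraries held Ddx3y, and TH2 and naive libraries held Xist, so cell type, genotype and sex cannot be told apart in either TFH contrast.

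The contrast of TFH CXCR5hi with TH2 cells can be set side by side in both kits, since no sample is shared. Of the 12 members that rose in QuantSeq, 11 also rose in RNA-seq (91.7% of 12, and 28.2% of the 39 in RNA-seq). The exception was Isg20, with a log2 difference of 2.45 ± 0.35 in QuantSeq and -0.03 ± 0.08 in RNA-seq (adjusted p = 0.751, edgeR). That share is to be read beside the 39 of all 53 members that rose in RNA-seq. In 38 members both kits gave the same sign, where 39 of the 53 had a difference above 0 in QuantSeq and 42 in RNA-seq. With most members above 0 in each kit, many share a sign whether or not the kits are linked. The share over all genes was not computed. Both members that fell in QuantSeq rose in RNA-seq: Igtp by 1.83 ± 0.08 (146.3 ± 7.41 CPM in TFH and 41.2 ± 3.61 CPM in TH2 libraries) and Samhd1 by 0.68 ± 0.07 (405 ± 13.2 and 253 ± 0.881 CPM). The TH2 cells of the 2 kits differ in genotype and in the transcript region that is read. The sex of the mice compared differs too. QuantSeq set TFH CXCR5hi libraries with Xist (403, 485 and 216 CPM) and no Ddx3y against TH2 libraries of both sexes. By contrast, Ddx3y marked both RNA-seq TFH libraries (82.5 and 85.2 CPM) and Xist both TH2 libraries there (1247 and 1055 CPM). The part of sex in the opposite directions of Igtp and Samhd1 was not tested.

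**Figure D5:**
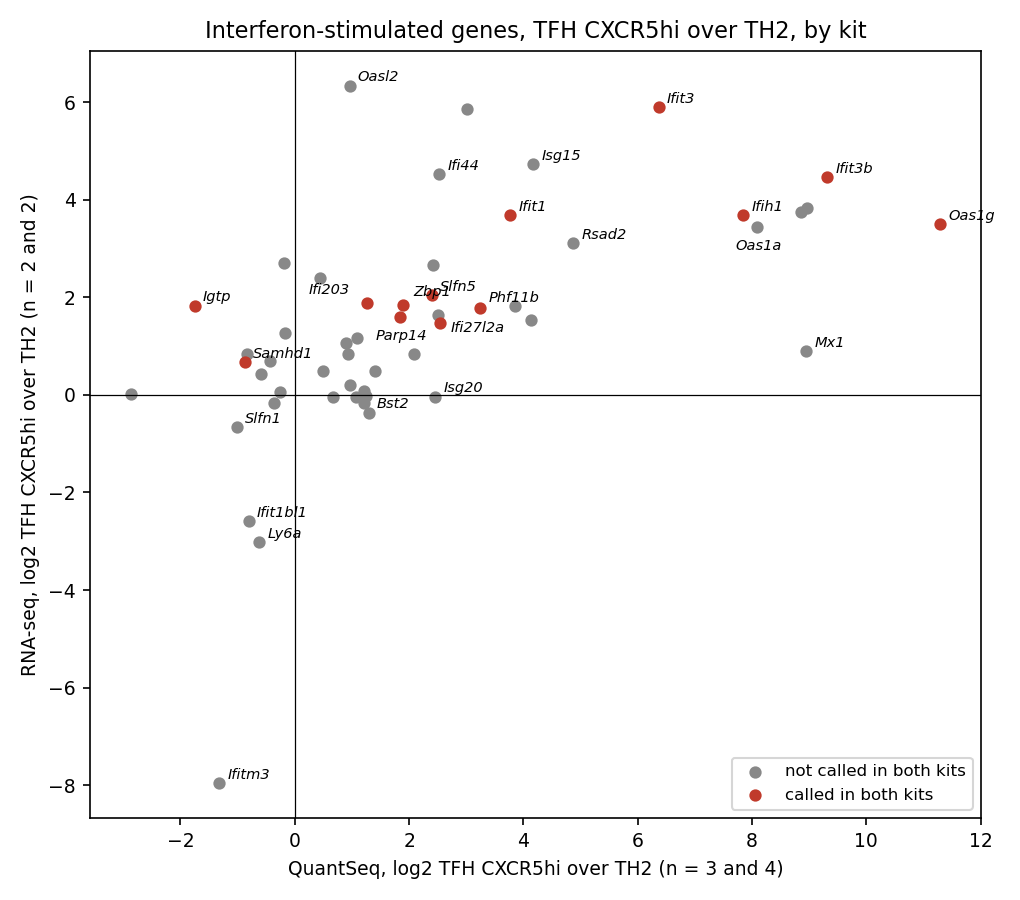
Log2 difference of TFH CXCR5hi over TH2 cells for each member in RNA-seq (vertical axis, n = 2 and 2) against QuantSeq (horizontal axis, n = 3 and 4), with members called in both kits in red. Most members lie in the upper right, Isg20 lies on the horizontal axis, and Igtp and Samhd1 are below 0 in QuantSeq and above 0 in RNA-seq.

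Of the members that rose in TFH cells over the 3 gates of QuantSeq, 10 had a promoter window and 9 of these held GAAANNGAAA (90.0%), Isg15, Ifit3, Ifit1, Oas1g, Phf11b and Ifi203 shown above among them. Of the other members with a window, 15 of 29 held it (51.7%), Igtp and Rsad2 among them. These shares are a description of the letters and not of binding.

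Genes upstream of the members were listed by role: ligands, receptors, kinases and transcription factors, inhibitors, and the sensors that induce interferon. Of 32 tested in QuantSeq, 3 rose and 1 fell between TFH and TH2 cells, where 5.17% of all genes were called. Irf7, which amplifies type I interferon and is itself induced by it, averaged 143 ± 27.0 CPM in TFH and 21.0 ± 17.0 CPM in TH2 libraries (log2 2.78 ± 0.59, adjusted p = 0.000472, edgeR). Socs3, a feedback inhibitor of cytokine receptors, rose by 1.77 on the log2 scale (adjusted p = 4.22e-07). Ifngr1, the ligand-binding chain of the interferon gamma receptor, fell by 3.76 on the log2 scale (23.7 CPM in TFH and 196 CPM in TH2 libraries, adjusted p = 1.18e-09). In TFH2 cells against TH2 cells Irf8 (3.85) and Tmem173 (1.44), which encodes the adaptor STING, rose and Ifngr1 fell (-2.78, all log2).

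Between TFH2 and TFH cells, where 0.647% of all genes were called, 2 of these 32 genes fell and none rose. Irf7 was at 20.6 and 2.03 CPM in CXCR5lo, 16.0 and 27.3 CPM in CXCR5int, and 50.4 and 38.4 CPM in CXCR5hi libraries of TFH2 cells. In TFH libraries it was at 142, 129 and 112 CPM, 156 and 187 CPM, and 149, 106 and 163 CPM through the same gates. All TFH2 libraries were below all TFH libraries (log2 -2.70 ± 0.50, adjusted p = 0.000243, edgeR). Socs3 averaged 183 ± 27.8 CPM in TFH2 and 454 ± 76.8 CPM in TFH libraries, also fully apart (log2 -1.29 ± 0.23, adjusted p = 0.00013, edgeR). Within single gates Ifngr1 rose in CXCR5hi TFH2 cells (log2 3.16) and Socs3 fell in CXCR5lo TFH2 cells (log2 -1.68). Between the gates of TFH cells, 1 of 5 receptor genes was called lower in CXCR5hi than in CXCR5lo, where 0.139% of all genes were called. Ifngr1 was there at 3.13, 1.34 and 8.02 CPM in CXCR5hi and 42.0, 82.1 and 23.7 CPM in CXCR5lo libraries, so its level in TFH cells differed by gate. In Il4-/- cells none of the 32 was called.

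Of 34 tested in RNA-seq, 21 rose and 7 fell between TFH and TH2 cells, where 61.8% of all genes were called. Irf7 was at 93.1 and 89.8 CPM in TFH, 18.2 and 24.2 CPM in TH2, and 63.2 and 66.2 CPM in naive libraries. It followed the order of Isg15, with naive cells between. Irf1, Irf8, Irf9 and Stat2 rose by 2.66, 3.46, 1.56 and 0.74 on the log2 scale between TFH and TH2 cells, and Ifnar1 and Ifnar2 by 1.06 and 0.80, while Ifngr1 fell by 2.86. Against naive cells 17 rose and 9 fell in TFH cells (57.2% of all genes called), and 7 rose and 18 fell in TH2 cells (65.8%). The interferon ligands were almost absent: Ifnb1 and the 4 Ifna genes listed had no count in any QuantSeq library, and Ifng was under 1 CPM in the TFH, TH2 and naive libraries of RNA-seq. In QuantSeq Ifng reached 40.2 CPM in 1 TFH2 CXCR5lo library and 35.5 and 25.3 CPM in 2 TFH CXCR5lo libraries, and stood under 5 CPM in all others.

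Members of high level that were called in no QuantSeq contrast kept overlapping groups. Sp100 ranged over 257 to 421 CPM in TFH2, 289 to 756 CPM in TFH and 338 to 638 CPM in TH2 libraries. Ifi27 ranged over 75.3 to 188, 83.6 to 216 and 41.2 to 176 CPM in the same order, and Lgals3bp, a secreted galectin-binding protein, over 31.3 to 124, 112 to 305 and 28.7 to 179 CPM. Single gates could lie apart without a call. In TFH cells Ifi27 was at 216, 206 and 159 CPM in CXCR5hi and 108, 90.4 and 83.6 CPM in CXCR5lo libraries, and Sp100 lay apart there too. In RNA-seq the library labelled TFH2 CXCR5hi held 3.35 CPM of Isg15, 57.8 CPM of Ifitm3 and 1285 CPM of Ly6a, with a score of 4.934. The library labelled TH2 of IL-4BacTg x OTII Tg mice held 49.3, 9.41 and 212 CPM, with a score of 5.026. As their TFH genes go against their labels, no direction is drawn from them.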

How the data were processed

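RNA was isolated with Trizol from sorted spleen cells, with 10 ng of it per library, per the labels' protocols. In the deposited files QuantSeq is given as whole counts by gene and RNA-seq as whole counts by transcript. Per the submitters' processing notes, the tools included STAR 2.7.0c, Bowtie 0.12.2 and featureCounts 1.6.0, with the builds mm9, mm10 and GRCm38.p6. The sources used here do not give which of these made which file.

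Gene names came from GENCODE M21. In QuantSeq 93 of 55573 identifiers had no name and held 0.0062% of counts. In RNA-seq 82946 of 95883 transcripts were named, the others held 14.66% of counts, and each gene was represented by its transcript with the highest count. Samples were grouped by kit, genotype and gate, and the kits were fitted apart with edgeR 4.0.16 in R 4.3.3 (TMM factors, filterByExpr with a minimum count of 10 and total of 15, robust quasi-likelihood fit, 2-sided test, Benjamini-Hochberg adjustment over all genes). The fits had 13 and 3 residual degrees of freedom, and 14 comparisons were tested. CPM use TMM-scaled library sizes. SE come from the fit, SD from the libraries. Where a group had no count, a fold is a bound with 3 counts in each empty library, which covers counting error only. Replicates differed beyond sampling noise (chi-square per degree of freedom 33.2 to 53.0 over 18 QuantSeq pairs and 2.56 to 19.9 over 3 RNA-seq pairs), so none was merged. Scripts were tested on simulated data.

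The members and the lists were chosen with earlier results of these data known. Named are the members called in a comparison, the 3 others of largest difference, with fewer than 3 calls also the 3 of smallest p, the 12 members of highest level in QuantSeq, and pathway genes that were called. Pathway and marker lists came from general knowledge. Alternatives were RLE size factors, no filter, DESeq2 1.42.0, a fit on only the groups compared, each library left out, parts of the TH2 group, sums over transcripts and, for the score, another pseudocount and members of at least 10 CPM. Pooled gates, TFH2 cells without the CXCR5hi gate and RNA-seq without its 2 single libraries were chosen after seeing the data. A pathway gene and a marker are not reported here.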

Additional observations from a re-analysis of the deposited data

Results flagged for a closer look

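In 10 of the 52 members checked, 1 of the 4 QuantSeq TH2 libraries lay far from the other 3, with a gap to its nearest neighbour above Dixon's critical value for a group of 4. Chance gives about 1 such group in 20 for normally distributed values, a rate that does not hold for counts near 0: in 4 of the 10 members (Ifih1, Ifi204, Ifit3b and Usp18) the other 3 libraries had no count, so any count stands apart. Replicate 2 was the high library for Eif2ak2 (30.0 CPM), Ifit3 (4.43 CPM), Ifit3b (0.341 CPM) and Usp18 (7.15 CPM). Replicate 3 was the high one for Cmpk2 (21.5 CPM) and Ifi204 (6.15 CPM), replicate 4 for Ifit1bl1 (70.9 CPM) and Isg15 (33.0 CPM), and replicate 1 for Ifih1 (0.392 CPM) and Rsad2 (19.2 CPM). The values of Ifih1 and Ifit3b are a count of 1.

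Between TFH CXCR5hi and TH2 cells, Igtp had a log2 difference of -1.75 in QuantSeq and 1.83 in RNA-seq, and Samhd1 one of -0.87 and 0.68. The kits gave opposite directions for both genes in every library, and the difference between the kits was not tested.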

How the results depend on the processing

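No paired analysis was possible because the labels carry no replicate numbers. Of the members called, 9 of 19 kept their call under all alternatives between TFH and TH2 cells, 2 of 10 between TFH2 and TH2, 0 of 6 between TFH2 and TFH, 5 of 14 between TFH CXCR5hi and TH2, and 40 of 43, 43 of 46 and 42 of 44 in RNA-seq (TFH and TH2 against naive, TFH against TH2). Of single-gene values, 2500 kept direction and call, 144 lost their call, 25 gained one and 3 reversed, none of the last called: Oas2 between TFH gates (4.111 without TFH CXCR5lo replicate 2, and -6.36 without TFH CXCR5hi replicate 1) and Ifi44 between RNA-seq TFH and naive cells (-0.154 and -0.143 without naive replicate 1 or TFH replicate 2, and up to 0.915 without naive replicate 2). The cause was not tested for any of these changes.

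DESeq2 called 1119 genes between TFH and TH2 cells, 1098 between TFH2 and TH2, 977 between TFH CXCR5hi and TH2, and 11 members and 279 genes between TFH2 and TFH. By gate from lo to hi it called 107, 27 and 77 genes between TFH2 and TFH (2 members in lo), 83 between the CXCR5hi and CXCR5lo gates of TFH, 127 and 1 member in TFH2, 124 in Bcl6KO and 91 and 2 members in Il4-/- cells. With no filter the counts were 10 members and 142 genes between TFH2 and TFH, 35, 3 and 25 genes by gate, 33 between TFH gates, 36 and 1 member between TFH2 gates, 17 in Bcl6KO and 38 and 1 member in Il4-/- cells. Fitted on only the groups compared, TFH2 against TH2 gave 4 members and TFH2 against TFH gave 14. By gate from lo to hi that fit gave 2, 1 and 1 members (7 and 1 genes in lo and int), and it gave 7 genes between TFH gates, 0 between TFH2 gates, 1 in Bcl6KO and 0 in Il4-/- cells. Pooled gates gave 3 members and 45 genes between TFH2 and TFH. Without the TFH2 CXCR5hi libraries 408 genes were called between TFH2 and TH2, and 1 member and 55 genes between TFH2 and TFH. With TH2 replicates 1 and 2 alone, Bcl6KO gave 2 members and 63 genes and Il4-/- 3 and 74, and with replicates 3 and 4 alone 1 and 50, and 1 and 33.

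Without each library in turn, members called ranged over 16 to 20 (566 to 738 genes) between TFH and TH2, 9 to 10 (553 to 731) between TFH2 and TH2, 4 to 8 (80 to 214) between TFH2 and TFH, and 10 to 14 (336 to 463) between TFH CXCR5hi and TH2. By gate from lo to hi they ranged over 0 to 2 (13 to 118), 0 to 0 (1 to 10) and 0 to 0 (0 to 21). They were 0 to 0 (13 to 29) and 0 to 1 (21 to 111) between TFH and TFH2 gates, and 0 to 1 (7 to 56) and 0 to 2 (10 to 31) in Bcl6KO and Il4-/- cells. In RNA-seq they were 41 to 41 (7739 to 8059) for TFH against naive, 43 to 49 (9609 to 11339) for TH2 against naive and 42 to 47 (8779 to 10855) for TFH against TH2.

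The score differed by 1.92 between TFH and TH2, 0.629 between TFH2 and TH2 and -1.291 between TFH2 and TFH, and by 0.271, -0.812 and 1.083 in RNA-seq. Without each library these ranged over 1.822 to 2.067, 0.531 to 0.776, -1.343 to -1.243, 0.258 to 0.283, -0.866 to -0.758 and 1.029 to 1.137. A pseudocount of 5 CPM gave 1.316 for TFH against TH2, -0.903 for TFH2 against TFH, and 0.199, -0.551 and 0.75 in RNA-seq. Members of at least 10 CPM gave 0.155, -0.632 and 0.787 in RNA-seq, and RLE size factors 0.249 for TFH against naive. In QuantSeq 22 of 53 members had counts in every library, and for the others a difference among low counts may not be detectable.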
